A study of Homo sapiens with 4 samples.

Results

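The genes that switch the anaphase-promoting complex (APC/C) and the cyclin-dependent kinases on and off were followed in RPE-1 cells between 4 h and 8 h of merbarone, a catalytic inhibitor of type II DNA topoisomerases. They were CDC20, FZR1, FBXO5, UBE2C, UBE2S, PTTG1, ESPL1, CDC25A, CDC25B and CDC25C, chosen by their current NCBI symbol, and are 10 of the 23459 genes listed in each library. All 10 passed the filter on low counts, which asked for a CPM (the count relative to library size) above 1 in 2 or more libraries. The line, hTERT RPE-1, is of wild type genotype and came from human retinal pigment epithelium that was made to grow without limit by telomerase. Every library came from cells held for 48 h in medium with 0.1% serum, which arrests them in G0/G1, and then given 200 μM merbarone. There were 2 replicates at 4 h and 2 at 8 h, and untreated cells were not analysed here, so time under merbarone and further time in low serum cannot be told apart.

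The APC/C is a ubiquitin ligase that marks mitotic proteins for destruction by the proteasome. CDC20 activates it in mitosis and FZR1 (CDH1) from the end of mitosis through G1, FBXO5 (EMI1) inhibits it in S and G2, and the E2 enzymes UBE2C and UBE2S start and lengthen the ubiquitin chains. Among its targets is securin (PTTG1), whose loss frees separase (ESPL1) to cleave cohesin at anaphase. The CDC25 phosphatases remove the inhibitory phosphates that WEE1 and PKMYT1 put on cyclin-dependent kinases, CDC25A at several stages of the cycle and CDC25B and CDC25C mainly at entry into mitosis. Many of these genes are transcribed in G2 and mitosis through a promoter element called the CHR, often beside CCAAT boxes, and others in G1 and S through E2F elements.

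The promoters are shown first, because many genes of this kind are known to be transcribed in the cell cycle through CHR, CCAAT or E2F letters. These letters were searched for, and not every member held them. RefSeq promoter windows (GRCh38.p14) were found for 9 of the 10 members, UBE2C being the member without one. For each, the start that matched the 5′ end of the canonical GENCODE transcript was taken. The 120 bases before that start are printed 5′ to 3′ for the 6 members with a window that fell between the times and for PTTG1 and FZR1, which were not called. Capitals mark CCAAT, the CHR letters TTTGAA or their variants TTCGAA and TTTAAA, and an E2F element written TTTCCCGC, TTTGGCGC, TTTGCCGC or TTTCGCGC, each searched on both strands. The stretches are chr1:43358861-43358980 (CDC20, plus strand), chr6:152983042-152983161 (FBXO5, minus strand), chr12:53268179-53268298 (ESPL1, plus strand), chr5:138331805-138331924 (CDC25C, minus strand), chr20:3796190-3796309 (CDC25B, plus strand), chr3:48188418-48188537 (CDC25A, minus strand), chr5:160421735-160421854 (PTTG1, plus strand) and chr19:3506191-3506310 (FZR1, plus strand).
CDC20: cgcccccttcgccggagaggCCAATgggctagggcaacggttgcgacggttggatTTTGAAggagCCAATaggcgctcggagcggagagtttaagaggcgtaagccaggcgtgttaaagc
FBXO5: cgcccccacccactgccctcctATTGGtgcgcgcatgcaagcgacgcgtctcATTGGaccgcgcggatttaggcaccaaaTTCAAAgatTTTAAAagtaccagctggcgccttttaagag
ESPL1: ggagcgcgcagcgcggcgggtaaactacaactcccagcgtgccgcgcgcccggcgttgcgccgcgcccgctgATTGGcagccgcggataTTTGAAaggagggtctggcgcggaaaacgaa
CDC25C: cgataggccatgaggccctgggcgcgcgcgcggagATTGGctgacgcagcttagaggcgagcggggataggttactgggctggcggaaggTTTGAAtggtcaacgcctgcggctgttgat
CDC25B: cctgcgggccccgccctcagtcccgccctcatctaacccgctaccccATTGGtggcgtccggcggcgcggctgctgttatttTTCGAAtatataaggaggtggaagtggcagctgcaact
CDC25A: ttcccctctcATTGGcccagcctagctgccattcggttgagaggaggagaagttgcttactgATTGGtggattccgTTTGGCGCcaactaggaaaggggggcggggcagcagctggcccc
PTTG1: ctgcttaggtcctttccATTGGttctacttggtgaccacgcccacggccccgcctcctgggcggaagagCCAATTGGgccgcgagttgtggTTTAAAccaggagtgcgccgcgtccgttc
FZR1: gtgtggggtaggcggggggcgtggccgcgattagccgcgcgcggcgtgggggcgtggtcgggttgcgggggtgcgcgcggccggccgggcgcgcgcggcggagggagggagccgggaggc

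TTTGAA was found in CDC20, 65 to 60 bases before the start, in FBXO5 at 40 to 35 (on the opposite strand, as TTCAAA), in ESPL1 at 31 to 26 and in CDC25C at 30 to 25. CDC25B held TTCGAA at 38 to 33 bases before the start, and CDC25A held the E2F letters TTTGGCGC at 44 to 37. TTTAAA stood in FBXO5 at 31 to 26 and in PTTG1 at 29 to 24. Thus each of the 6 members that fell and had a window held 1 or more of these elements, and of the 3 that were not called PTTG1 held 1, while UBE2S and FZR1 held none in these 120 bases. The motifs and the length were chosen with the sequences and the calls known, and the contrast depends on them. Without TTTAAA, 0 of the 3 that were not called held an element, and within 250 bases of the start 2 of the 3 did, since FZR1 has a TTTGAA farther out, while the 6 that fell held one under each choice. All of the 6 also held CCAAT, and so did PTTG1, in which 2 of its 3 matches overlap. Over all 34943 promoter windows of the table, the same 120 bases held TTTGAA in 5.72%, TTCGAA in 0.444%, TTTAAA in 4.89%, an E2F element in 1.39% and CCAAT in 20.4%. Within 250 bases the shares were 13.4% for TTTGAA, 1.2% for TTCGAA, 11.3% for TTTAAA, 2.77% for an E2F element and 32% for CCAAT. How many windows held any of the CHR or E2F elements was not counted. These matches are descriptions of letters.

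**Figure D1:**
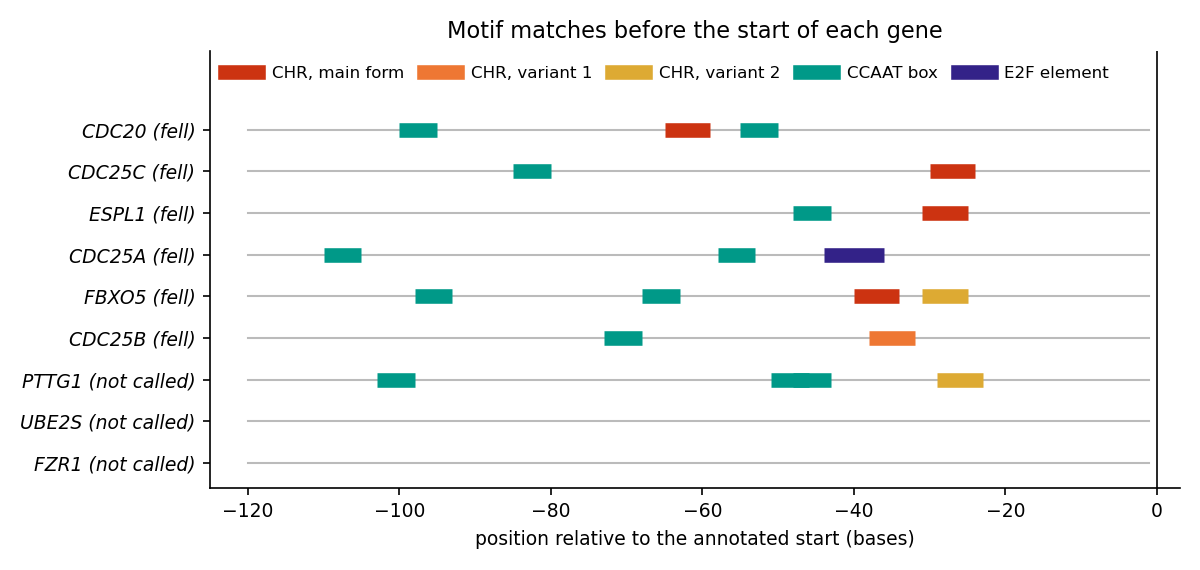
Motif matches in the 120 bases before the annotated start of the 9 members with a promoter window (x axis, bases from the start), with the members ordered by log2 fold change from the strongest fall at the top. Coloured blocks are matches on either strand, and CHR or E2F blocks stand in the 6 members marked as fallen and in PTTG1.

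The depth behind the values was 8064450 to 10324697 reads counted on genes per library. Normalized counts are counts scaled by TMM to the mean effective library size, and log2FC is 8 h against 4 h from edgeR's quasi-likelihood test, with p adjusted by Benjamini-Hochberg over the 12559 retained genes. A gene is said to have risen or fallen at an adjusted p below 0.05, and is called a DEG when the absolute log2FC is also above 1. Of the 10 members, 7 fell and 3 were not called, and 3 of the 7 were DEGs. Over all retained genes, 18.8% fell and 19.9% rose, and 3.88% were DEGs that fell and 1.45% DEGs that rose. The median log2FC of the members was −0.77, against 0.00 for all retained genes. Scaling by library size alone moved the median of all genes to −0.11 and the share of lower genes among those called from 48.6% to 66.0%. With it 8 members and 3289 of the 12559 retained genes fell, against 7 and 2367 with TMM. Both 8 h libraries lay below both 4 h libraries for 7 members, where this held for 34.9% of all retained genes. They lay above both for 1 member (FZR1), where this held for 34.8% of all retained genes. No member rose, with 0 at an unadjusted p below 0.05 in edgeR, limma-voom and DESeq2 with time as the only term. With the replicate number as a block, 1 member was higher at an unadjusted p below 0.05 in edgeR, and 0 at an adjusted p below 0.05.

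**Figure D2:**
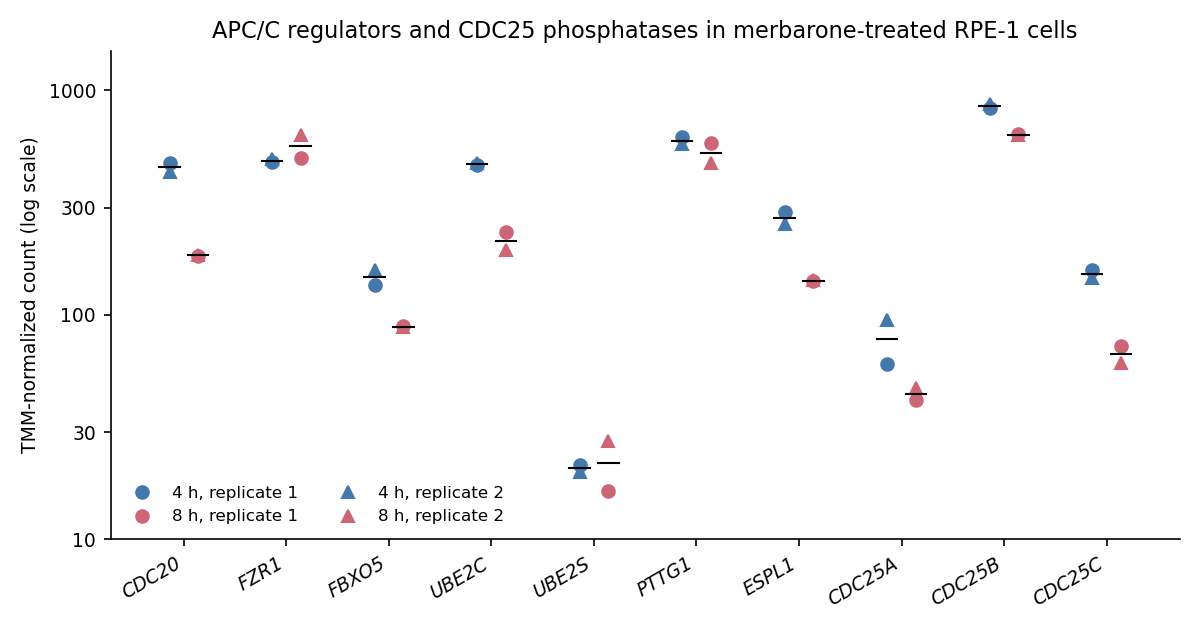
TMM-normalized counts (y axis, log scale) of the 10 members in each library, with 4 h in blue, 8 h in red, circles for replicate 1, triangles for replicate 2 and black lines for the means. The red points of CDC20, FBXO5, UBE2C, ESPL1 and the CDC25 genes lie below the blue ones, while those of UBE2S and PTTG1 overlap them and those of FZR1 lie above.

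Of the activators of the APC/C, CDC20 fell and FZR1 was not called. CDC20 (chromosome 1, 43824652 to 43828874, plus strand, hg19), the mitotic activator, had 472.0 and 434.2 normalized counts at 4 h, against 183.1 and 185.1 at 8 h. It was 59.4% lower at 8 h (453.1 ± 26.7 against 184.1 ± 1.46, SD, n = 2 each), the largest fall among the members (log2FC −1.30, standard error 0.12, edgeR adjusted p = 1.33e-07). FZR1 (chromosome 19, 3506309 to 3538332, plus strand), the G1 activator, had 480.1 and 493.2 at 4 h, against 497.0 and 632.4 at 8 h. The second 8 h library lay well above the other three, and the difference did not pass the test (log2FC 0.21, standard error 0.11, edgeR adjusted p = 0.15). Without 8 h replicate 1 FZR1 was higher at a log2FC of 0.38 (edgeR adjusted p = 0.00612), and without 8 h replicate 2 its log2FC was 0.03 (edgeR adjusted p = 0.869). The ratio of CDC20 to FZR1 counts, which no scaling between libraries can move, was 0.983 and 0.881 at 4 h, against 0.368 and 0.293 at 8 h. FZR1 itself was not called, so the change in this ratio mainly restates the fall of CDC20. How many other genes shift in this way against CDC20 was not counted. The ratio does not compare levels, since the countable lengths of the genes differ. Per kilobase of countable sequence, CDC20 stood above FZR1 at 4 h (788.0 against 117.0 normalized counts) and at 8 h (320.0 against 136.0). The exons of FZR1 overlap those of MFSD12 on the opposite strand, and the use of strand in counting is not given in the sources used here, so its value is uncertain. MFSD12 itself had 726.0 ± 91.3 normalized counts at 4 h and 879.6 ± 213 at 8 h (SD, n = 2 each), with the same high library at 8 h.

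FBXO5 (chromosome 6, 153291654 to 153304714, minus strand), which encodes the inhibitor EMI1, fell with CDC20 but by less. Its normalized counts were 136.4 and 157.7 at 4 h, against 89.0 and 88.2 at 8 h (log2FC −0.73, standard error 0.18, edgeR adjusted p = 0.00334). The groups did not overlap, and the call was lost without 4 h replicate 2 (log2FC −0.62, edgeR adjusted p = 0.0644). Relative to CDC20, FBXO5 counts were higher at 8 h, with ratios of 0.289 and 0.363 at 4 h, against 0.486 and 0.477 at 8 h. Relative to FZR1 they were lower, with 0.284 and 0.320 at 4 h, against 0.179 and 0.139 at 8 h. The share of all genes that shift in these ways against CDC20 or FZR1 was not counted.

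UBE2C (chromosome 20, 44441215 to 44445596, plus strand), the E2 enzyme that starts chains on APC/C targets, was a DEG. It had 465.8 and 474.1 normalized counts at 4 h, against 234.2 and 193.8 at 8 h, a fall of 54.5% in the mean (log2FC −1.13, standard error 0.12, edgeR adjusted p = 7.65e-07). UBE2S (chromosome 19, 55911113 to 55919156, minus strand), the E2 enzyme that extends them, rested on only 24 and 22 reads at 4 h, against 16 and 22 at 8 h. The libraries of the times overlapped, and no difference was detectable at this depth (log2FC 0.05, standard error 0.37, edgeR adjusted p = 0.933). The sign of this value turned with library size scaling (−0.06) and without 4 h replicate 2 or 8 h replicate 2. The span of UBE2S is shared in part with RPL28, although their exons do not overlap.

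Securin and separase bind each other until anaphase, and of their genes ESPL1 fell and PTTG1 was not called. PTTG1 (chromosome 5, 159848862 to 159855746, plus strand) had 620.1 and 574.8 normalized counts at 4 h, against 579.9 and 474.6 at 8 h. These values overlap, and the difference did not pass the test (log2FC −0.18, standard error 0.11, edgeR adjusted p = 0.206). PTTG1 was called lower without 8 h replicate 1 (log2FC −0.33, edgeR adjusted p = 0.0208) and with library size alone (log2FC −0.28, edgeR adjusted p = 0.0448). ESPL1 (chromosome 12, 53662083 to 53687422, plus strand), which encodes separase, had 286.3 and 252.9 at 4 h, against 141.1 and 142.9 at 8 h. It fell by 0.92 on the log2 scale, just under the fold threshold for a DEG (standard error 0.14, edgeR adjusted p = 5.41e-05). There were 2.17 and 2.27 reads of PTTG1 for each read of ESPL1 at 4 h, against 4.11 and 3.32 at 8 h. The change in this ratio mainly restates the fall of ESPL1. It was not counted how many other genes shift in this way against ESPL1.

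All 3 CDC25 phosphatase genes fell, with log2FC from −1.18 to −0.43. CDC25C (chromosome 5, 137620958 to 137674044, minus strand) had 157.9 and 146.0 normalized counts at 4 h, against 72.6 and 60.9 at 8 h, and was a DEG (log2FC −1.18, standard error 0.19, edgeR adjusted p = 7.88e-05). Its exons overlap those of FAM53C on the opposite strand, which is counted with 1900 ± 52.6 normalized counts at 4 h and 1549 ± 38.0 at 8 h (SD, n = 2 each), so reads of the pair may not be fully separated. CDC25A (chromosome 3, 48198636 to 48229907, minus strand) rested on few reads, 67 and 105 at 4 h, against 41 and 38 at 8 h. Its normalized counts of 60.1 and 95.2 at 4 h were farther apart than those of any other member at that time in proportion, and all 4 h values lay above the 41.9 and 47.2 at 8 h. It fell by 0.80 on the log2 scale (standard error 0.26, edgeR adjusted p = 0.0185), and the call was lost without 4 h replicate 2 (log2FC −0.43, edgeR adjusted p = 0.342), with DESeq2 (adjusted p = 0.0981) and with the trend by mean log2-CPM removed (adjusted p = 0.059).

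CDC25B (chromosome 20, 3767419 to 3786768, plus strand) had the most reads of the 3 and the smallest fall. It had 834.6 and 872.1 normalized counts at 4 h, against 636.1 and 632.4 at 8 h, 25.7% lower in the mean (log2FC −0.43, standard error 0.09, edgeR adjusted p = 0.000854). Of the reads on the 3 genes together, CDC25B took 79.3% and 78.3% at 4 h, against 84.7% and 85.4% at 8 h. The share of CDC25C went from 15.0% and 13.1% to 9.67% and 8.22%, while that of CDC25A overlapped between the times, at 5.71% and 8.55% against 5.59% and 6.38%. Read counts of genes of different length are compared here only as a change of share between libraries. The shares have a fixed total and CDC25B itself fell, so its larger share mainly restates the larger fall of CDC25C. How many other genes shift in this way against the 3 together was not counted.

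**Figure D3:**
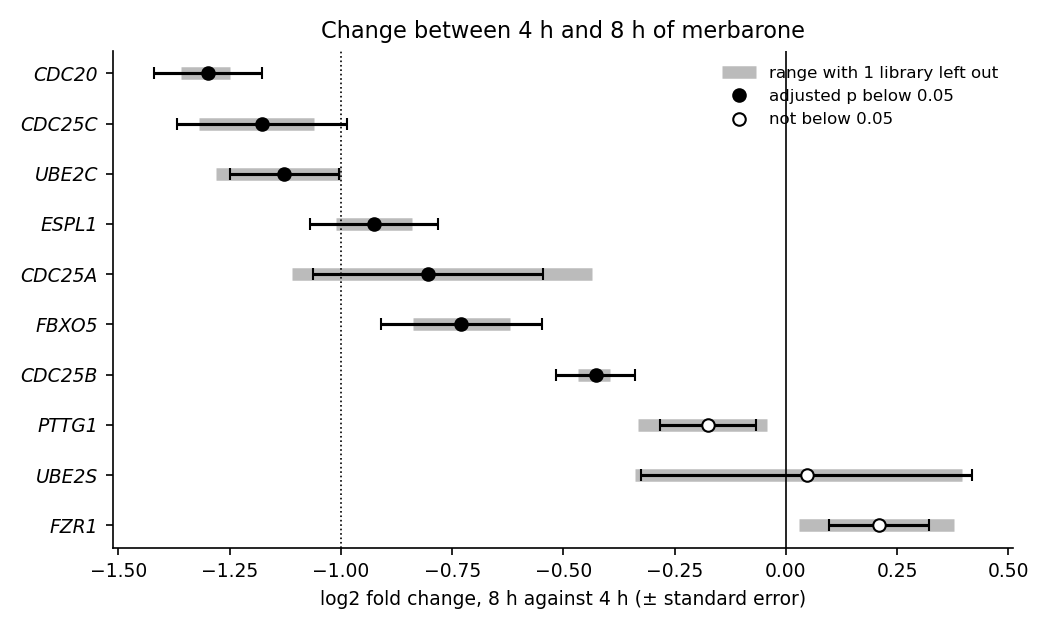
The log2 fold change of each member between 8 h and 4 h (x axis, points) with its standard error (thin bars) and the lowest and highest value with any 1 library left out (grey bands). Filled points had an adjusted p below 0.05, the dotted line marks a log2 fold change of −1, and the grey band of UBE2S crosses 0.

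How much of each transcript can be counted differed between members. The reads were 75 bases long, were aligned without splicing, and were kept only with a single position in the genome. Every 75-base window of the canonical transcript was therefore looked up in GRCh37, the assembly that hg19 represents, allowing up to 2 mismatches. A window was taken as countable when it lay within 1 exon and had a single position. The countable share was 81.5% of windows for FZR1, 85.1% for FBXO5, 74.7% for CDC25A, 66.9% for CDC25B, 66.2% for UBE2S, 65.9% for ESPL1 and 56.3% for CDC25C. It was lowest for CDC20 (36.5%), PTTG1 (37.1%) and UBE2C (46.9%), which have short exons and also windows that match elsewhere. Of the windows within an exon, 65.1% had a single position for CDC20, 72.7% for UBE2S, 77.3% for PTTG1 and 84.0% for UBE2C, against 99.7% to 100% for the other 6 members. Windows across a junction are lost for every member, so all counts are lower than the RNA would give, by a share that differs between members. For these 4 genes, windows with several positions add to the loss. The loss is equal in all libraries under the same mapping. Reads from near copies of these 4 genes may also have been lost or assigned.

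**Figure D4:**
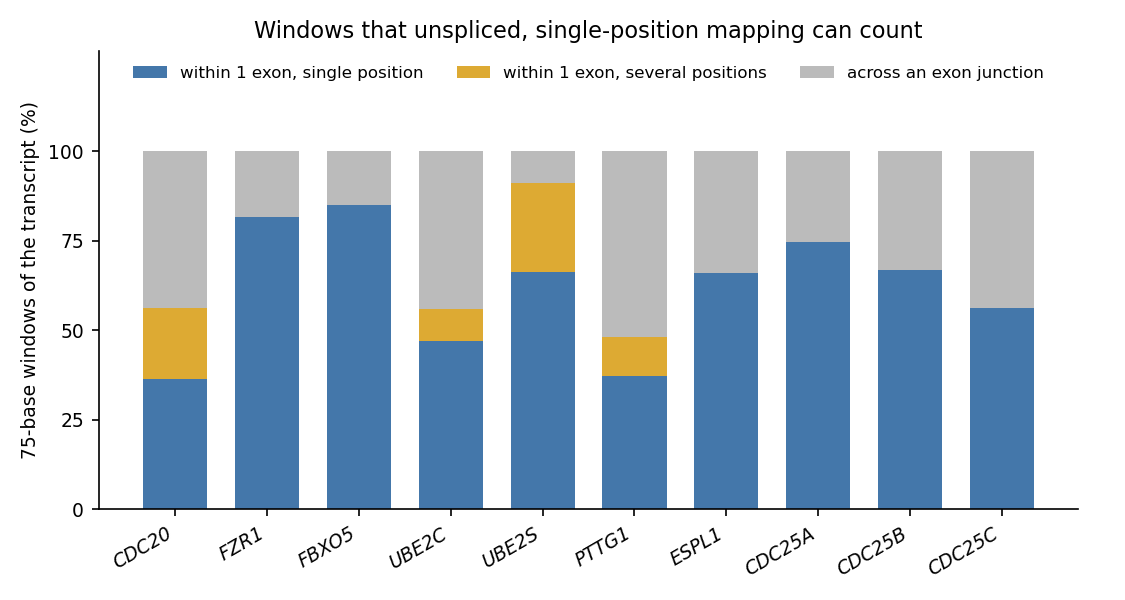
Share of the 75-base windows of each member's canonical transcript (y axis, %) that lie within 1 exon with a single genome position (blue), within 1 exon with several positions (yellow) or across an exon junction (grey). Yellow stands out only in CDC20, UBE2C, UBE2S and PTTG1.

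Levels were compared between members per kilobase of countable windows. At 4 h the order was PTTG1 with 2510 ± 135 normalized counts per kilobase, UBE2C with 1424 ± 18.0, CDC20 with 788.0 ± 46.5, CDC25B with 419.0 ± 13.0, CDC25C with 134.0 ± 7.46 and FZR1 with 117.0 ± 2.22 (SD, n = 2 each). Below them came FBXO5 with 87.3 ± 8.96, ESPL1 with 62.5 ± 5.47, CDC25A with 27.6 ± 8.81 and UBE2S with 12.6 ± 0.684 (SD, n = 2 each). No neighbours in this order overlapped at 4 h. At 8 h the order on the same scale was PTTG1 (2215 ± 313), UBE2C (649.0 ± 86.5), CDC20 (320.0 ± 2.54), CDC25B (311.0 ± 1.29), FZR1 (136.0 ± 23.0), CDC25C (58.8 ± 7.30), FBXO5 (52.6 ± 0.319), ESPL1 (32.9 ± 0.287), CDC25A (15.8 ± 1.33) and UBE2S (13.3 ± 4.71). On this scale FZR1 and CDC25C changed places between the times, whereas per kilobase of whole transcript FZR1 stood above CDC25C at 4 h (94.0 against 72.6 normalized counts) and at 8 h (109.0 against 31.9). CDC25C and FBXO5 differed by less than the spread of CDC25C at 8 h, CDC25A and UBE2S overlapped there, and CDC20 stood below CDC25B at 8 h when the whole transcript length was used (112.0 against 203.0 normalized counts per kilobase).

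Neighbouring genes of the pathways are given by role. For comparison, 18.8% of all retained genes fell, 19.9% rose and 3.88% were DEGs that fell. All 13 APC/C substrates examined beside PTTG1 fell, with a median log2FC of −1.19, and 9 were DEGs. The strongest was the mitotic cyclin CCNB1, with 670.4 ± 46.8 normalized counts at 4 h and 213.5 ± 43.7 at 8 h (SD, n = 2 each) and a log2FC of −1.64, and the weakest the thymidine kinase TK1 (log2FC −0.30). Another 8 genes encode proteins that form, regulate or take apart the spindle checkpoint complex, which holds CDC20 until chromosomes are attached. Of these 8, 5 fell and 3 did not pass, with a median of −0.57. BUB1B, the BUBR1 subunit of the inhibitory complex, fell from 411.9 ± 38.0 to 91.4 ± 0.949 (log2FC −2.17, edgeR adjusted p = 2.1e-09), while MAD2L1BP, whose product helps to take that complex apart, did not pass (log2FC 0.14).

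The median of the APC/C core subunits lay nearer to that of all genes than the median of the 10 members did (−0.77). The members include the CDC25 genes, and the regulators FZR1 (log2FC 0.21) and UBE2S (0.05) also lay near the median of all genes. Of 14 core subunits, 13 passed the filter and CDC26, with 1 read over all libraries together, did not. Where 18.8% of all retained genes fell and 19.9% rose, 3 of these 13 fell, 1 rose and 9 did not pass. The median log2FC of the 13 was −0.18. The 3 that fell were ANAPC7 (log2FC −0.81, edgeR adjusted p = 6.25e-06), ANAPC5 (−0.35) and CDC16 (−0.29), and the catalytic RING subunit ANAPC11 rose (log2FC 0.32, edgeR adjusted p = 0.0142). Among the other inhibitor, E2 and deubiquitinase genes, FBXO43, which encodes EMI2, the relative of EMI1 that acts in meiosis, fell from 87 and 65 reads to 15 and 12 (log2FC −2.17, edgeR adjusted p = 1.95e-05). OTUD7B, a deubiquitinase that opposes the APC/C, rose (log2FC 0.26), and the other 6, including UBE2D1, UBE2D2, UBE2D3 and UBE2D4, which can also start chains, did not pass. USP44 had the highest value of that list on 6 to 21 reads (log2FC 0.59, edgeR adjusted p = 0.395).

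Around the CDC25 phosphatases, their target kinases CDK1 (log2FC −1.22, edgeR adjusted p = 1.03e-07) and CDK2 (log2FC −1.06, edgeR adjusted p = 6.67e-08) were DEGs that fell. Of the 9 kinase genes, 6 fell, 2 rose and 1 did not pass, with a median of −0.71. WEE1, which puts on the phosphate that CDC25 removes, was the one that did not pass, at 431.8 ± 60.7 normalized counts at 4 h and 394.2 ± 13.6 at 8 h (SD, n = 2 each). There were 0.333 and 0.375 reads of CDC25C for each read of WEE1 at 4 h, against 0.189 and 0.151 at 8 h. As WEE1 was not called, this ratio mainly restates the fall of CDC25C, and the share of all genes that shift so against CDC25C was not counted. PKMYT1, the other inhibitory kinase, fell (log2FC −0.76), as did the checkpoint kinases CHEK1 (−0.92), CHEK2 (−0.67) and ATR (−0.71), which act on or upstream of CDC25 after DNA damage. MARK3 and MAPKAPK2, kinases that phosphorylate CDC25 at the site bound by 14-3-3 proteins, rose (log2FC 0.36 and 0.25). Of the 9 genes for 14-3-3 and F-box proteins, 8 passed the filter, of which 2 fell, 3 rose and 3 did not pass. They ran from YWHAB (log2FC −0.40) to FBXW11 (log2FC 0.47), with a median of −0.02. Of all retained genes, 18.8% fell and 19.9% rose. SFN had 1 to 4 reads per library. With library size alone, 2 genes of these pathway lists together rose instead of 7, and with the trend by mean log2-CPM removed 3 did.

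**Figure D5:**
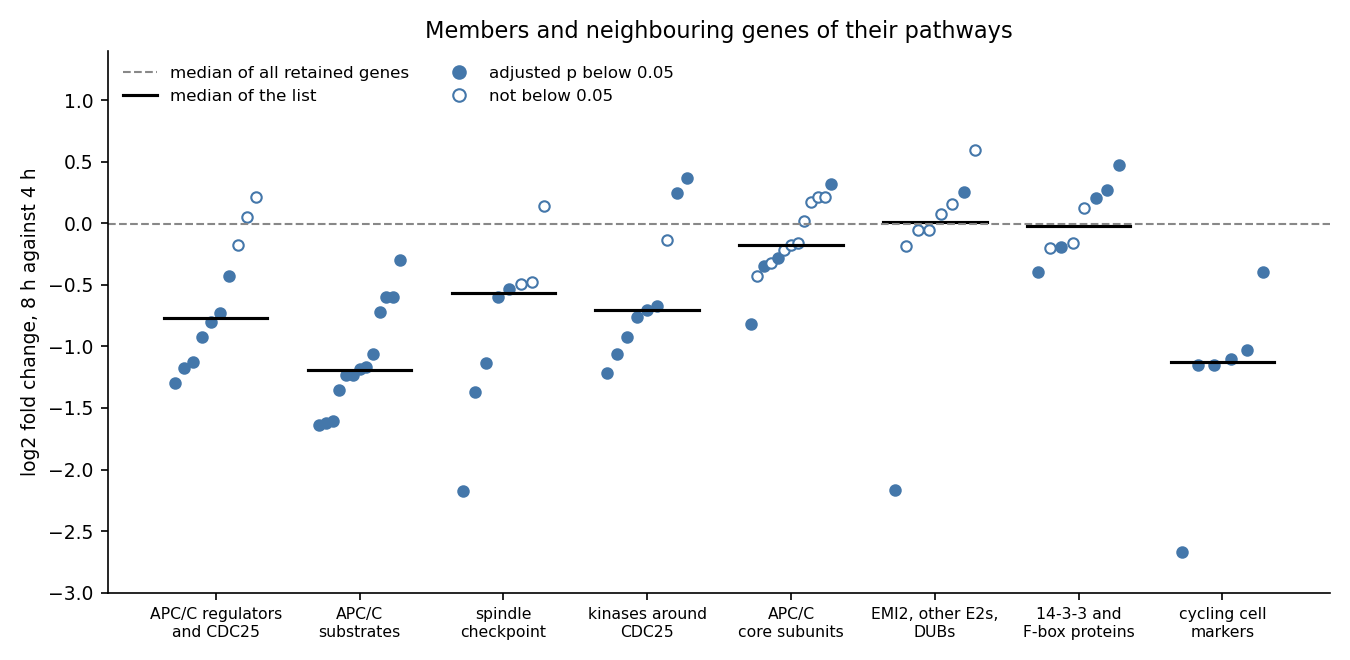
The log2 fold change between 8 h and 4 h (y axis) of each retained gene of the members, of 6 neighbouring pathway lists and of cycling cell markers. Filled points had an adjusted p below 0.05, black bars are list medians and the dashed line is the median of all retained genes, which the core subunits lie nearer to (−0.18) than the substrates do (−1.19).

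Markers of cycling cells moved with the members. All 6 of 6 fell, with a median log2FC of −1.13, and their summed normalized counts were 9853 and 9687 at 4 h, against 5258 and 4965 at 8 h. In these bulk libraries, fewer cycling cells and less RNA per cell cannot be told apart. The proliferation marker MKI67 had 2566 ± 109 normalized counts at 4 h and 1152 ± 80.8 at 8 h (SD, n = 2 each), a log2FC of −1.15. The list ran from CCNE2, a cyclin of the G1/S transition (log2FC −2.67, edgeR adjusted p = 3.83e-06), to PCNA, the sliding clamp of DNA replication (log2FC −0.40, edgeR adjusted p = 0.000641). CCNE2 rested on few reads, 77 and 75 at 4 h, against 8 and 11 at 8 h. Relative to MKI67, the counts of CDC20, UBE2C, CDC25A and CDC25C overlapped between the times. For CDC20 the ratio was 0.190 and 0.164 at 4 h, against 0.151 and 0.169 at 8 h, and for UBE2C it was 0.187 and 0.179 at 4 h, against 0.194 and 0.177 at 8 h. The other 6 members were higher relative to MKI67 in both 8 h libraries, which also held for 93% of all other retained genes, while both 8 h ratios were lower for 1.32% of them. The part of these markers in the fall of the members was not tested. Among them, PTTG1 went from 0.249 and 0.217 reads per MKI67 read to 0.480 and 0.434, and FBXO5 from 0.0548 and 0.0597 to 0.0736 and 0.0806.

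Of 13 markers of retinal pigment epithelium, 5 passed the filter. KRT8, KRT18, MITF and OTX2 had 132 or more reads in each library, RPE65 had 2 to 7, and TYR and DCT had none in any library. The summed normalized counts of the list were 7550 and 8019 at 4 h, against 6789 and 7200 at 8 h. KRT18, a keratin of simple epithelia, was the one marker of the 5 that was called, and it fell (log2FC −0.51, edgeR adjusted p = 3.72e-05), with 3366 ± 216 normalized counts at 4 h against 2370 ± 34.1 at 8 h (SD, n = 2 each). The other 4 did not pass, from KRT8 (log2FC 0.03) to the melanosome gene PMEL (log2FC 0.39, on 7 to 12 reads), and the median of the 5 was 0.18. Of 7 markers of leukocytes, endothelium and neurons, only SYT1 passed, with 411 to 566 reads, and CD3E and RBFOX3 were at 0 in all libraries. The list summed to 487.0 and 479.0 at 4 h, against 589.0 and 521.0 at 8 h, and its part in the members' values was not tested.

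Genes with a pattern like that of the members were sought among the 9371 other genes that averaged 100 or more normalized counts. The log2-CPM values of each gene were centred over the 4 libraries, and the distance was taken to the mean centred profile of the 10 members, which was 0.30 and 0.34 at 4 h, against −0.34 and −0.30 at 8 h. The nearest were ACKR3, an atypical chemokine receptor gene, at a distance of 0.0116, the protein kinase gene PKN3 at 0.0265 and KNSTRN, which encodes a spindle and kinetochore protein, at 0.0288. Each of the 3 fell, by 0.63 to 0.64 on the log2 scale. With 4 libraries, this likeness describes little more than a fall of the same size and no overlap between the times.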

How the data were processed

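RNA-Seq of hTERT RPE-1 cells gave 4 libraries, 2 per time. Per the labels and the study's methods, the authors mapped 75-base reads to hg19 with Bowtie 1.2.0, kept reads with a single position, and deposited raw counts per gene with NCBI Gene identifiers, neither normalized nor filtered. The gene annotation, the counting tool and the use of strand are not given in the sources used here.

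The filter kept 12559 of 23459 genes, those whose CPM exceeded 1 in 2 or more libraries, and these were normalized by TMM. The 8 h libraries were compared with the 4 h libraries with edgeR 4.0.16 (quasi-likelihood test, R 4.3.3), with time as the only term, in place of the Limma-Voom of the study, which was an alternative (limma 3.58.1), as was DESeq2 1.42.0. The standard error is the log2FC divided by the square root of F. Other alternatives were RLE factors, library size alone, other filters, glmTreat, removal of the trend with mean log2-CPM, a replicate block and omission of single libraries. The edgeR test was also run on simulated counts with 200 genes changed, each by more than any member here, and with no gene changed. These runs do not cover smaller changes, and their outcome is not given here.

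Symbols came from RefSeq (23308 of the identifiers), positions from GENCODE on GRCh37, and promoters from RefSeq on GRCh38.p14. Depth was 8064450 to 10324697 counts per library, and the biological coefficient of variation was 6.52%. With 2 libraries per time, an exact permutation test cannot give a p below 0.333. The study calls the replicates biological, and the labels name no separate cultures, so p-values measure the spread between these libraries, which may be technical. Members, lists, motifs and ratios were chosen with earlier results of these data known, and the spellings and length of the motif search also after the members' promoters were read. The search over 250 bases and that without TTTAAA were added then. All members are named, and of each other list the genes with the highest and lowest log2FC and those needed to read small counts. The remaining genes named in those lists were chosen after their values were seen.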

Additional observations from a re-analysis of the deposited data

How the results depend on the processing

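The 7 members that fell had a negative log2FC under each of the 13 alternatives, and CDC20, UBE2C, ESPL1, CDC25B and CDC25C had an adjusted p below 0.05 in each of the 12 other than glmTreat. With glmTreat, which tests for a log2FC beyond 1, 0 members (edgeR; 1 at an unadjusted p below 0.05), 6 lower and 0 higher genes of the pathway lists and 58 lower and 26 higher genes of all retained were called. DESeq2 called 1503 lower genes of all retained against 2367, and DEGs were 362 lower and 145 higher. Higher genes of the pathway lists numbered 2 with library size alone and 3 with the trend with mean log2-CPM removed, against 7, and removal of the trend gave 345 lower and 259 higher DEGs of all retained against 487 and 182, a share of lower genes of 57.1% against 72.8%, which was 83.7% with library size alone. UBE2S had a log2FC of −0.058 with library size alone.

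With 1 library left out, which assumes that the lone library varies like the others, 5 to 8 members were called lower and 0 to 1 higher (FZR1), 2 to 8 genes of the pathway lists were called higher, and 1509 to 2294 of all retained genes were called lower and 1605 to 2534 higher. The log2FC of UBE2S then ran from −0.34 to 0.40, and was 0.00 without 4 h replicate 2 (−0.0029). The counts of all retained genes were lowest without 4 h replicate 1 (1509 and 1605) or 4 h replicate 2 (1522 and 1619), and those of higher pathway genes were 3 and 2 without the same libraries. The cause of these differences was not tested.

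With the replicate number as a block, 7 members were called lower and 0 higher, as without it, and the block changed no other call of a member. Of all 12559 retained genes, the block called 2664 lower and 2829 higher, against 2367 and 2500 without it. The deviations of same-numbered libraries had a correlation of 0.0484 over the retained genes. With 2 libraries per time, this value cannot decide whether same-numbered libraries were paired. Depth limited UBE2S, with at most 24 reads.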
